A study of Mus musculus with 4 samples.

Results

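The 10 genes described here, Tnf, Il1b, Il1a, Ccl3, Ccl4, Nlrp3, Nfkbia, Tnfaip3, Dusp2 and Bcl2a1b, are inflammatory cytokine, chemokine and NF-kB response genes read out in microglia, and they are 10 of the 31053 genes of the expression matrices. They were chosen by their measured detection in the microglia of these same libraries and by their low level in the other cells, so their levels, their co-detection and their contrasts with other cells are given as a description with no test. A microglial cell was a barcode absent from the authors' metadata of excitatory neurons that held 5 or more unique molecular identifiers (UMIs, each standing for 1 captured transcript) of Cx3cr1, P2ry12, Tmem119 and Csf1r together and at most 2 UMIs of Slc17a7, Gad1 and Gad2 together. This rule took 1139, 1035 and 1027 cells in the 3 unsorted libraries, 3201 in all beside 19525 other cells, and 58 cells in the sorted library.

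Microglia are the resident macrophages of the brain. When pattern recognition or cytokine receptors are engaged, inhibitor of NF-kB proteins are degraded, NF-kB dimers enter the nucleus, and genes of cytokines and chemokines are transcribed together with genes of inhibitors that later shut the pathway down. Microglia are also known to switch on genes of this kind during enzymatic dissociation of brain tissue.

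The study traced projections of single neurons of the ventromedial prefrontal cortex with MERGE-seq, which reads an expressed viral barcode and the transcriptome of the same cell. All animals were male C57BL/6 mice, 8 weeks old when they were injected and older by the weeks allowed for retrograde labelling when cells were taken, and each received rAAV2-retro viruses expressing EGFP, with 1 barcode for each of 5 targets (agranular insular cortex, dorsomedial striatum, mediodorsal thalamus, basolateral amygdala and lateral hypothalamus). Cells of the prelimbic and infralimbic areas of mouse 1, mouse 2 and mouse 3 gave the unsorted libraries, and cells of mice 4 to 6 were pooled and sorted for EGFP to give the sorted library. Slices were kept warm with the glutamate receptor blockers CNQX and D-AP5 and were digested with papain and then with protease and dispase. Every library came from injected, dissociated tissue, so that the state of microglia before injection and dissociation and any effect of these steps cannot be told apart. The unsorted cells were loaded into 3 lanes, and whether each lane held 1 mouse is not stated in the same way by all sources, so the p-values below measure the spread between these libraries, which may be technical.

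The unsorted libraries held 7243 to 8040 barcodes and the sorted library 2075, with 83039497 to 87809114 UMIs in each unsorted library. Microglia made up 13.9% to 14.2% of the unsorted barcodes, with a median of 4115 to 4330 UMIs per cell, against 21340 to 23210 in excitatory neurons. The label was checked on 13 microglial genes that the gate did not use, and all were far more widely detected in the gated cells than in the others. C1qb was detected in 99.9% ± 0.0974 of the microglia (SD, n = 3 libraries), and the lowest of the 13, the microglial transcription factor Sall1, in 64.4% ± 0.794. In each unsorted library 4 or 5 cells over the microglial minimum stood in the neuronal metadata, and 40 to 51 more held too many neuronal UMIs, and these were left out. Of 7 border macrophage markers, all had UMIs among the gated microglia, and their summed level was 211 to 231 CPM (UMIs of a gene scaled to a common total of UMIs) there and 2.62 to 4.08 CPM in the other cells. Of 6 monocyte and neutrophil markers, 4, 2 and 3 had UMIs in the microglia of unsorted libraries 1, 2 and 3, with a sum of 5.31 to 9.35 CPM against 0.572 to 1.42 CPM in the other cells, and S100a9 and Ly6g were at 0. Endothelial markers summed to 95.8, 255 and 407 CPM in the microglia of these libraries, against 709 to 745 CPM in the other cells, mural markers to 130.2, 89.5 and 225 CPM and oligodendrocyte markers to 205, 131 and 111 CPM. At most 1.67% of microglia in a library held 3 or more UMIs of any of these 3 lists. The part of such UMIs in the members' values was not tested. No doublet caller was run. Pairs of unsorted libraries shared 11 to 30 cell barcodes.

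The sequence just upstream of the start of transcription is where NF-kB and AP-1, the dimers through which inflammatory and early response signals act, bind many genes of this kind. The 250 bases before the RefSeq start (build GRCm38.p6, read 5′ to 3′ on the strand of the gene) are shown for 5 members: the cytokines Tnf and Il1a and the feedback inhibitors Nfkbia and Tnfaip3, to which the co-detection results turn, and the chemokine Ccl3. Capitals mark matches to the NF-kB consensus and to AP-1 TGANTCA, on either strand.
Tnf, chr17:35202008-35202257, minus strand: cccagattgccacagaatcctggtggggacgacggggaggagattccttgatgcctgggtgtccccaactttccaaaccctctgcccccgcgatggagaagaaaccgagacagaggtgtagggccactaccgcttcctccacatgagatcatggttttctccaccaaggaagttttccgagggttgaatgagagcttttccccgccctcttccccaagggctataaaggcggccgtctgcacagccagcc
Il1a, chr2:129309973-129310222, minus strand: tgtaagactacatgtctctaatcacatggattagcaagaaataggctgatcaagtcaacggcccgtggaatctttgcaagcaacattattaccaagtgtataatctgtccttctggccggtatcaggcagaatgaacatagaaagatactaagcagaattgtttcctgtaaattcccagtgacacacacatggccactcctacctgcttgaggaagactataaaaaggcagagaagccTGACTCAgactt
Ccl3, chr11:83649379-83649628, minus strand: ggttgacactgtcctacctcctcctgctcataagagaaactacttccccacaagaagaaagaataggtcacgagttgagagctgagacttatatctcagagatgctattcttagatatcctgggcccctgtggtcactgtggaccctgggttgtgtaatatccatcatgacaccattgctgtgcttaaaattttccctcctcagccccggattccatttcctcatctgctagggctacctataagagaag
Nfkbia, chr12:55492648-55492897, minus strand: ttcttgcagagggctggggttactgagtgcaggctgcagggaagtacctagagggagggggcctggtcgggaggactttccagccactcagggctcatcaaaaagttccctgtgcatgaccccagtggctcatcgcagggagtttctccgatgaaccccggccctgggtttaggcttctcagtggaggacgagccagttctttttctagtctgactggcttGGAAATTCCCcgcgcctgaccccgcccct
Tnfaip3, chr10:19015411-19015660, minus strand: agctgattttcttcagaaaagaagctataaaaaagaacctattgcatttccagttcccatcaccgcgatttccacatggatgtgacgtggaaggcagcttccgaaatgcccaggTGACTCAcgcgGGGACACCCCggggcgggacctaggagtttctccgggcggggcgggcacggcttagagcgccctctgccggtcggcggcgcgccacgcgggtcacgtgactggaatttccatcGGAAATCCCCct
The Nfkbia stretch held 1 NF-kB match, from 29 to 20 bases before the start. The Tnfaip3 stretch held 2 NF-kB matches, from 125 to 116 and from 12 to 3 bases before the start, and 1 AP-1 match from 136 to 130. In Il1a an AP-1 match lay 12 to 6 bases before the start. Tnf and Ccl3 held neither. Over the members with an entry, 3 of 9 held the NF-kB consensus (Nfkbia, Tnfaip3 and the second entry of Nlrp3) and 3 of 9 held AP-1 TGANTCA (Il1a, Tnfaip3 and Bcl2a1b), against 7.25% and 6.75% of all 32851 mouse stretches of this length. The cyclic AMP response motif TGACG was found in 2 of 9 members and 17.8% of all stretches, and TATAAA in 4 of 9 (Tnf, Il1b, Il1a and Tnfaip3) and 12.4%. A match is a description of letters, and members with several entries had more sequence in which to match. Ccl4 was not among the entries.

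In GRCm38 coordinates, 2 pairs of members were neighbours. Ccl3 (chr11:83647844-83649355, minus strand) and Ccl4 (chr11:83662584-83664683, plus strand) lay 13.2 kb apart, and Il1a (chr2:129299610-129309972, minus strand) and Il1b (chr2:129364570-129371139, minus strand) lay 54.6 kb apart, with no protein-coding gene between either pair. Tnf stood at chr17:35199381-35202007 on the minus strand, Nlrp3 at chr11:59541568-59566956 on the plus strand, Nfkbia at chr12:55489410-55492647 on the minus strand, Tnfaip3 at chr10:19000910-19015657 on the minus strand, Dusp2 at chr2:127336159-127338376 on the plus strand and Bcl2a1b at chr9:89199209-89207827 on the plus strand. The gene Il1bos overlaps Il1b on the opposite strand, and it had 9 to 19 UMIs in the microglia of a library. Counts of Bcl2a1b are uncertain, since 17 of 31 windows of 91 bases over its last 400 transcript bases also occur in Bcl2a1d or Gm29094. No such window was found for the other 9 members.

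The 3 cytokine genes were widely detected in microglia. Tnf, tumour necrosis factor, had 1 or more UMIs in 56.5%, 53.4% and 55.4% of the microglia of unsorted libraries 1, 2 and 3 and a summed level of 568, 553 and 553 CPM. The positive cells held a median of 3 Tnf UMIs, and the 3 libraries lay close together. Il1a, interleukin 1 alpha, was detected in 61.3%, 61.0% and 60.7%, at 548, 557 and 512 CPM. Il1b, interleukin 1 beta, which is made as a precursor that caspase 1 cleaves, was detected in 28.2%, 28.6% and 23.9%, at 329, 367 and 270 CPM. Library 3 was lowest for Il1b, and its spread over libraries was 1.93 times the binomial error of a share, the highest ratio of the 10 members, for which the median ratio was 0.882.

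The chemokine genes Ccl3 and Ccl4 encode secreted proteins that attract monocytes and lymphocytes. Ccl3 was detected in 68.4%, 68.2% and 68.0% of microglia, at 1515, 1633 and 1504 CPM. Ccl4 was detected in 72.3%, 70.1% and 71.2%, at 2299, 2445 and 2267 CPM. For both, library 2 had the highest summed level but not the highest detected share. Single cells reached 81 UMIs of Ccl3 and 123 of Ccl4.

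Nlrp3, the sensor of the inflammasome that activates caspase 1, was detected in 31.8%, 31.1% and 29.3% of microglia, at 121, 120 and 106 CPM, and positive cells held a median of 1 UMI, so its detected share depends most directly on depth.

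The 3 feedback genes were detected in each library at steady levels. Nfkbia, the inhibitor of NF-kB that is itself an NF-kB target, was detected in 88.3%, 86.9% and 86.8% of microglia, at 2999, 3008 and 2795 CPM. Tnfaip3, the ubiquitin-editing enzyme A20 that ends signalling from the TNF and Toll-like receptors, was detected in 65.1%, 62.9% and 61.2%, at 570, 562 and 535 CPM. Dusp2, a nuclear phosphatase of mitogen-activated protein kinases, was detected in 42.0%, 42.3% and 40.0%, at 372, 371 and 312 CPM. For all 3, library 3 had the lowest value of the 3 libraries on both scales. Bcl2a1b, a BCL2 family gene that protects from apoptosis, was detected in 73.3%, 72.5% and 70.2%, at 618, 653 and 570 CPM, with the reservation about shared sequence given above. Its relatives were at 62.3 to 66.9 CPM (Bcl2a1a) and 46.7 to 53.8 CPM (Bcl2a1d).

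Since 3′ capture differs between genes, these shares give no order of transcript abundance between members. The members together took 0.942% to 1.03% of all microglial UMIs. The median over the 10 genes of the detected share was 62.0%, and with every cell thinned to 2000 UMIs it was 50.3%. At that depth Tnf was detected in 44.8% of microglia, Il1b in 23.3%, Il1a in 48.9%, Ccl3 in 62.8%, Ccl4 in 67.7%, Nlrp3 in 17.8%, Nfkbia in 87.7%, Tnfaip3 in 51.8%, Dusp2 in 32.8% and Bcl2a1b in 59.5%.

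**Figure D1:**
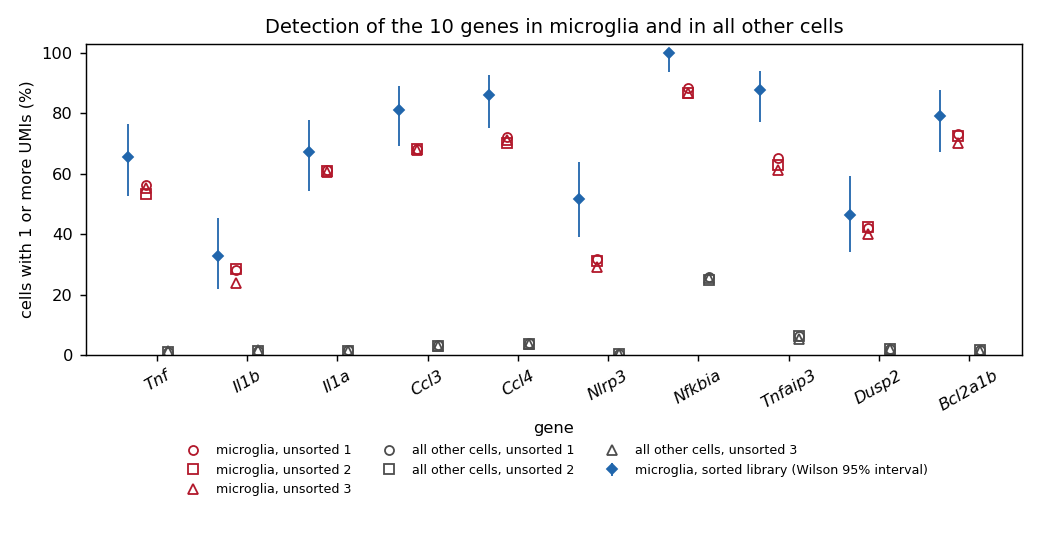
Percent of cells with 1 or more UMIs (y axis) for each of the 10 genes (x axis), with a symbol for each unsorted library in microglia and in all other cells, and the microglia of the sorted library with a Wilson 95% interval of counting error. The 3 unsorted libraries lie close together for every gene, from 23.9% to 28.6% for Il1b and from 86.8% to 88.3% for Nfkbia, and far above the other cells.

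The sorted library gave 58 microglia, whose median of 7208 UMIs was higher than in the unsorted libraries. Without thinning, Tnf was detected in 65.5% of them (Wilson 95% interval 52.7 to 76.4), Ccl4 in 86.2% and Nfkbia in 100% (93.8 to 100). Thinned to 2000 UMIs, the intervals of 8 of 10 members held the values of all 3 unsorted libraries. The exceptions were Nlrp3, at 27.6% (17.8 to 40.2) against 17.2% to 19.2%, and Tnfaip3, at 69.0% (56.2 to 79.4) against 49.7% to 53.7%. With 1 sorted library from pooled mice there is no test, and the intervals cover counting error only.

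How far the members marked microglia within these libraries was read from where their UMIs lay and from their level in other cell classes. Of all Tnf UMIs in a library, 93.7% to 94.3% lay in the gated microglia. The share was 92.3% to 94.0% for Il1a, 87.2% to 90.3% for Il1b, 91.8% to 94.6% for Ccl3, 93.9% ± 1.51 (SD, n = 3 libraries) for Ccl4, 92.3% to 92.9% for Nlrp3, 87.4% to 90.5% for Dusp2 and 93.7% to 94.3% for Bcl2a1b. It was lowest for the feedback genes Tnfaip3, at 81.2% to 83.2%, and Nfkbia, at 75.2% to 76.2%. Among the 8 larger named classes, the levels of all 10 in microglia lay above those of the next class in every library. Cells that met no class rule, 1305, 1297 and 1334 in libraries 1, 2 and 3, were left out of this order. They held on average 17.1 CPM of Tnf and 75.8 CPM of Ccl4. For every member but Nfkbia their mean level was above that of the named class after microglia. What these cells are was not tested.

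Nfkbia had the most graded pattern over classes. After microglia, at 2934 ± 121 CPM (SD, n = 3 libraries), came endothelial cells at 808 ± 12.7 CPM, with detection in 83.3% ± 1.72 of them, and mural cells at 210 ± 20.3 CPM. Astrocytes at 74.6 CPM and oligodendrocytes at 57.5 CPM overlapped between libraries, as did oligodendrocyte precursors at 25.9 CPM and inhibitory neurons at 22.4 CPM. Excitatory neurons were lowest at 10.2 CPM. The other members fell off more steeply. Tnfaip3 came next in endothelial cells at 21.5 ± 2.19 CPM, apart from the mural cells that followed at 8.63 ± 6.70 CPM. Dusp2 was also second in endothelial cells, at 7.72 ± 0.776 CPM, and Ccl3 in mural cells, at 16.4 ± 5.63 CPM, both apart from the class below. Ccl4 was second in mural cells at 6.46 ± 1.86 CPM, which overlapped with inhibitory neurons at 6.43 ± 2.86 CPM. For Tnf, Il1b, Il1a, Nlrp3 and Bcl2a1b the named class after microglia held 0.701 to 3.26 CPM on average and overlapped between libraries with the class below it. T and NK cells, monocytes and neutrophils, and border macrophages by the class rule numbered at most 8 cells in a library, and their sums were uneven and at times above those of microglia. Il1b was at 844, 129.5 and 364 CPM and Nlrp3 at 49.7, 194 and 243 CPM in these border macrophages, and Dusp2 at 341, 443 and 772 CPM and Tnfaip3 at 205, 332 and 772 CPM in T and NK cells.

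**Figure D2:**
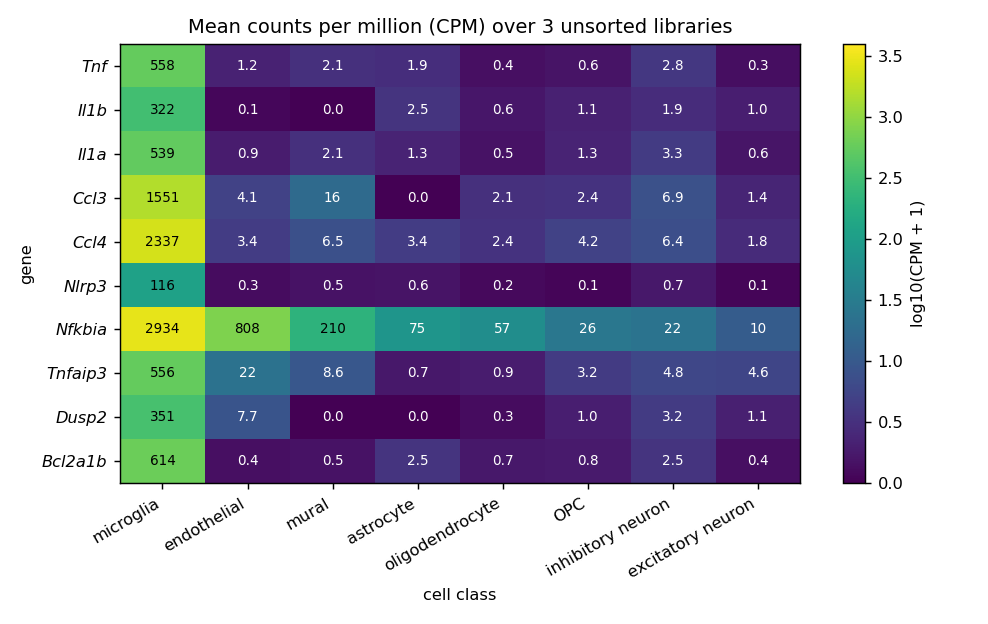
Mean CPM of each gene (rows) in 8 cell classes (columns) over the 3 unsorted libraries, with the value printed in each square and the colour on a log10(CPM + 1) scale. Of these 8 classes, microglia hold the highest value for all 10 genes, and Nfkbia is the gene with a second high square, in endothelial cells at 808 CPM.

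Droplets can take up free RNA, so a share of cells with a UMI may hold a background. The shares in excitatory neurons are given for this reason. With excitatory neurons thinned to 10000 UMIs, Tnf was detected in 0.555%, 0.330% and 0.415% of those of the unsorted libraries and in 0 of 1554 in the sorted library, which at a floor of 3 cells allows a share of cells with a UMI of up to 0.193% (Wilson upper limit 0.247%). Ccl4 was detected in 1.70%, 1.52% and 1.95% and in 0 of 1554. Ccl3 was detected in 1.63%, 1.65% and 1.12% against 0.322%, and Il1b in 1.11%, 1.28% and 1.12% against 0.515%. For these cytokine and chemokine genes the neurons of the sorted library, of which 2.80% of barcodes were microglia, had the lower share. That library also differed in its sorting, pooling and mice, and the source of the UMIs in neurons was not tested. In the unsorted microglia, at a median of 4115 to 4330 UMIs, the detected shares of these genes were 23.9% or more. For Nfkbia the shares were 10.1%, 9.23% and 9.37% against 8.62%, and for Tnfaip3 4.73%, 4.78% and 4.19% against 4.76%, so that for Tnfaip3 the sorted library lay within the unsorted range. Within the authors' excitatory subtypes, Tnfaip3 was detected in 18.6% ± 0.711 of L5-S100b and 15.6% ± 1.81 of L2/3-Rorb neurons and in 4.84% ± 3.36 of L5-Htr2c neurons (SD, n = 3 libraries, not thinned).

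The rule has a threshold, and shares near it were lower than in the whole class on both of its sides. Cells just inside, with 5 or 6 gate UMIs, numbered 42 to 67 in a library and had a median depth of 871 UMIs on average. In them Il1b was detected in 7.73%, Ccl4 in 35.7% and Nfkbia in 41.3%. Cells just outside, numbering 81 to 96 with a median depth of 783 UMIs, had Il1b in 8.96%, Ccl4 in 27.1% and Nfkbia in 42.1%.

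The members were unevenly spread over the microglia. The 10% of cells with the most UMIs of a gene held 73.1% ± 3.12 of all microglial Il1b UMIs (SD, n = 3 libraries), 55.6% ± 2.44 of Dusp2, 55.4% ± 3.38 of Nlrp3 and 48.6% ± 0.960 of Tnf. They held 45.5% of Ccl3, 43.8% of Il1a, 42.2% of Ccl4, 38.9% of Tnfaip3 and 37.3% of Bcl2a1b. For Nfkbia, which most cells carried, the share was 27.2% ± 0.612. Genes with few UMIs per cell have high values on this scale by counting alone.

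Whether the members were found in the same cells was described by the odds ratio of co-detection within each library, in cells thinned to 2000 UMIs so that deep cells do not link all genes. All 45 pairs had a mean log2 odds ratio above 0, and the lowest value of any pair in any library was 0.48. The median over pairs was 1.22 (SD 0.13 over 3 libraries), and without thinning it was 1.90. The highest pair was Nfkbia and Dusp2, at 4.28 ± 0.19, where Dusp2 was detected in 37.1% of microglia with Nfkbia and in 2.55% of those without. Tnf and Nfkbia followed at 3.54, with Nfkbia in 97.8% of cells with Tnf and in 79.4% of those without. Nfkbia and Tnfaip3 reached 3.47, with Tnfaip3 in 57.5% of cells with Nfkbia. For Il1b and Nfkbia the value was 2.91 and for Il1a and Nfkbia 2.76. These pairs rest on the few microglia in which no Nfkbia was found.

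The neighbouring chemokine genes were also linked, with a log2 odds ratio of 2.73 ± 0.22 for Ccl3 and Ccl4, and Ccl4 was detected in 82.9% of cells with Ccl3 and in 42.1% of those without. The neighbouring interleukin genes Il1a and Il1b were at 1.41 ± 0.02, close to pairs that are not neighbours, such as Tnf and Il1a at 1.32 and Tnf and Il1b at 1.14. Tnf and Il1b were found together in 13.9% of microglia. The lowest pair was Ccl4 and Nlrp3 at 0.63. By member, the median over its 9 pairs was 2.76 for Nfkbia, 1.35 for Tnfaip3, 1.31 for Dusp2 and 1.26 for Il1a, and 0.92 to 1.14 for the other members.

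**Figure D3:**
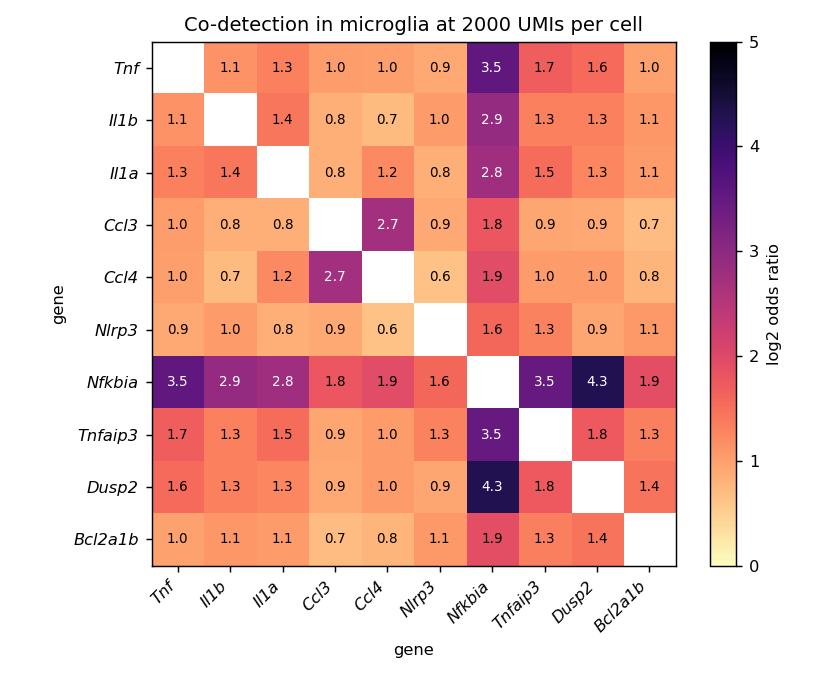
Mean log2 odds ratio of co-detection over the 3 unsorted libraries for each pair of the 10 genes (rows and columns), in microglia thinned to 2000 UMIs. All squares are above 0, and the row of Nfkbia is the darkest, up to 4.28 with Dusp2.

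Counting members per cell at the same depth, 3.42% of microglia had none, 5.13% had 1, 16.1% had 6 and 0.685% had all 10. Cells with 0 or 1 member made up 8.55% ± 1.42 (SD, n = 3 libraries), and cells with 6 to 10 members made up 45.7%. The mean share was highest at 6 members, while library 2 was highest at 7, and without thinning the mean was highest at 8 members, with 15.6% of cells.

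Other gene lists were described along this count, with the summed UMIs of a list per 2000 UMIs. Early response genes, such as Fos, Jun and Egr1, went from 22.1 ± 1.15 in cells with 0 or 1 member to 36.2, 48.2 and 58.4 ± 1.86 in cells with 2 to 3, 4 to 5 and 6 to 10 members, and the libraries did not overlap between neighbouring bins. Heat shock genes stood at 5.40, 6.15, 4.94 and 4.31, and homeostatic microglial genes outside the gate at 76.9 ± 6.06, 74.0, 70.9 and 69.4. The homeostatic sum went from 81.0 to 69.1 and from 79.7 to 69.3 in libraries 1 and 2 but from 69.9 to 69.8 in library 3. Genes of disease-associated microglia went from 28.6 ± 3.98 to 15.1 ± 0.10, and interferon response genes from 0.909 to 0.531. Border macrophage markers moved with the count as well, from 1.82 to 0.0539 UMIs, as did the median depth of the cells before thinning, from 3559 to 4561 UMIs, and the mitochondrial share, from 6.24% to 7.59%. Without cells that held 3 or more UMIs of macrophage markers, a step chosen after seeing the data, the early response genes went from 21.8 to 58.3 and the disease-associated genes from 17.3 to 14.7. The interferon response genes then hardly differed, at 0.526 and 0.521. The homeostatic genes then went from 80.4 ± 5.37 to 69.5 ± 0.387. Their lowest library at 0 or 1 member, at 74.3, lay above the highest at 6 to 10 members, at 69.9. The part of depth and of the mitochondrial share in these values was not tested.

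**Figure D4:**
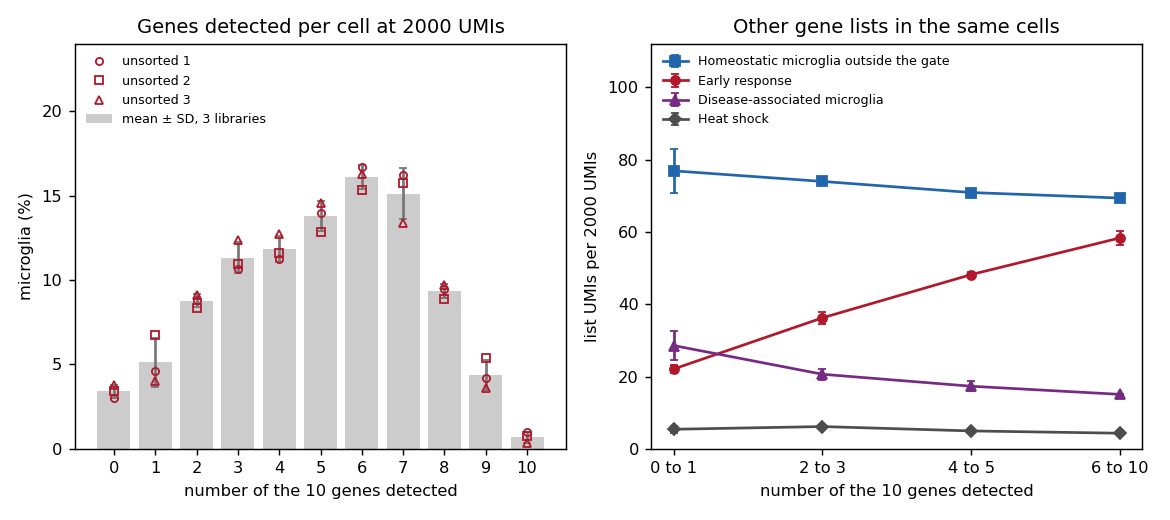
Left, percent of microglia (y axis) by the number of the 10 genes detected at 2000 UMIs per cell (x axis), with bars for the mean ± SD of 3 unsorted libraries and a symbol for each library. Right, mean ± SD over libraries of the UMIs of 4 other gene lists per 2000 UMIs in bins of that number. The early response line goes from 22.1 to 58.4. The mean of the homeostatic line goes from 76.9 to 69.4, with hardly any difference in library 3 while cells with macrophage markers are kept.

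Gene by gene, detection in cells with 4 or more members (649 to 745 in a library) was set against cells with 0 or 1 member (72 to 95). Of 4253 genes detected in at least 5% of thinned microglia of each library, 581 (13.7%) were higher in every library and 1145 (26.9%) lower in every library. Of the early response genes 16 of 18 were higher in every library, of the other secreted ligands 9 of 10, with Il18 lower, of the feedback inhibitors 8 of 11 and of the survival genes 4 of 7. The survival genes include Bcl2a1d, which shares end sequence with the member Bcl2a1b. Of 13 homeostatic genes, 5 were higher in every library and none lower. The receptors gave 3 of 9, with Tnfrsf1a and Ly96 lower, and the inflammasome genes 1 of 8, which was Casp4. In all, 27 of 53 pathway genes outside the 10 were higher in every library and 5 lower. The genes most like the members on this measure were Atf3, a stress-induced transcription factor, detected in 87.2% against 26.4%, the atypical inhibitor of NF-kB Nfkbiz, in 67.8% against 9.97%, the activation marker Cd83, in 81.0% against 23.0%, Ier3, in 76.9% against 22.4%, and the chemokine receptor-like gene Ccrl2, in 64.2% against 13.9%. The next were Egr1, Dusp1, Ier2, Gadd45b and Socs3, the last a feedback inhibitor of cytokine receptors detected in 57.0% against 15.7%. P2ry6, a receptor for nucleotides that promotes phagocytosis, went the other way, from 38.7% in cells with 0 or 1 member to 18.5%, and was named after its value was seen.

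The remaining genes of the pathway were then compared between microglia and all other cells by edgeR's quasi-likelihood test on counts summed per library, with the library as a block and Benjamini-Hochberg adjustment over 16862 genes. Calls needed an adjusted p under 0.05 and a change of 1 or more on the log2 scale. The test called 54.1% of all genes, 22.9% higher in microglia and 31.2% lower. The 10 members were all called higher, which their choice fixes, with log2 fold changes from 6.45 for Nfkbia to 8.77 for Bcl2a1b. Fold changes rest on a scaling between cell classes that raised them by 0.64.

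Of 77 pathway genes outside the members that could be tested, 67 rose in microglia, 2 fell and 8 were not called, with a median log2 fold change of 4.54 against -0.29 over all genes. All 15 secreted ligands rose, among them the monocyte chemoattractant Ccl12, at 253 ± 14.9 CPM against 0.989 ± 0.108 (log2 fold change 8.64, SE 0.08), and Il6, at 11.5 ± 0.946 CPM against 0.0530 ± 0.0479, with the lowest change for Il18 at 1.94. The microglia of this contrast still held 23 or 24 cells in a library with 5 or more UMIs of macrophage markers. In edgeR's scaled CPM, microglial Cxcl1 was at 12.2 with these cells and 2.07 without them. Ccl7 was at 10.6 and 1.64, and Ccl12 at 317 and 262. Among receptors 12 of 14 rose, among them Tlr2, which senses bacterial lipoproteins, at 8.37, SE 0.12. Il1r1, the signalling receptor of interleukin 1, fell, with 5 UMIs in all microglia (log2 fold change -2.18, SE 0.58), and edgeR's adjusted p was 0.00329, or 0.0705 without library 2. The other gene that fell was its partner chain Il1rap, at -1.94, named after its value was seen. All 9 inflammasome and processing genes rose, with Casp4 at 7.96, the pore-forming Gsdmd at 6.14 and Nlrc4 at 2.65, SE 0.61. The Nlrc4 value rests on few UMIs, at 1.19 against 0.189 in edgeR's scaled CPM.

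Of the signalling genes 7 of 11 rose, led by the kinase Irak4, at 16.8 ± 1.34 CPM against 1.15 ± 0.0506, and the adaptor Myd88 at 4.25, with Irak1 lowest at 1.29, while Traf6, Ikbkg, Map3k7 and Chuk were not called. All 5 NF-kB subunits rose, Rel most, at 187 ± 11.3 CPM against 6.20 ± 0.318 (5.56, SE 0.06), then Nfkb2 at 4.40, with Rela lowest at 2.85. Feedback inhibitors rose for 14 of 16 genes, led by the RNase Zc3h12a at 6.58 and Nfkbiz at 6.44, with Dusp5 lowest at 1.16, while Cyld and Tnip1 were not called. Survival genes rose for 5 of 7, with Bcl2a1a at 8.45, Bcl2a1d at 8.15 and Mcl1 lowest at 3.86, while Bcl2l1 and Birc2 were not called. Bcl2a1d shares end sequence with the member Bcl2a1b, so its counts may not be separate from those of Bcl2a1b. The gate that defines the microglia used none of these genes, but it does pick the cells in which they are counted.

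Border macrophages, the macrophages of the meninges and vessels, are the closest relatives of microglia here, and the members were set side by side in both. Cells with 5 or more UMIs of the 7 macrophage markers numbered 32, 32 and 31 in the unsorted libraries, against 1115, 1012 and 1003 microglia without them. Of these macrophage-gate cells, 23 or 24 in a library also met the microglial rule and were counted with the macrophages in this contrast. Tnf was at 162, 135 and 123 CPM in these macrophages and at 579, 563 and 570 in microglia. Dusp2 was at 35.1, 28.3 and 30.8 CPM against 380, 380 and 323, and Il1a at 56.2, 120 and 41.1 against 561, 568 and 531. Both groups were apart in every library for these genes, and likewise for Ccl3, at 295, 496 and 473 CPM against 1547, 1660 and 1542, and Ccl4, at 660, 489 and 545 against 2340, 2494 and 2331. Nfkbia was at 1763, 1196 and 1012 CPM against 3028, 3055 and 2861, Tnfaip3 at 316, 142 and 144 against 576, 573 and 552, and Bcl2a1b at 260, 198 and 231 against 626, 664 and 583.

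The levels overlapped for 2 members. Il1b was at 421, 290 and 170 CPM in macrophages and 328, 367 and 275 in microglia (log2 fold change -0.42, SE 0.17), and Nlrp3 at 84.3, 177 and 92.5 against 122, 118 and 107 (-0.23, SE 0.23). By the same call rule 8 of the 10 members were lower in macrophages, from -3.73 for Dusp2 to -1.43 for Nfkbia, where 7.52% of 11063 genes were called lower and 6.37% higher. These member values are a description, since the members were listed for their level in microglia. Each macrophage sum held 31 or 32 cells, far fewer than the microglial sum.

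**Figure D5:**
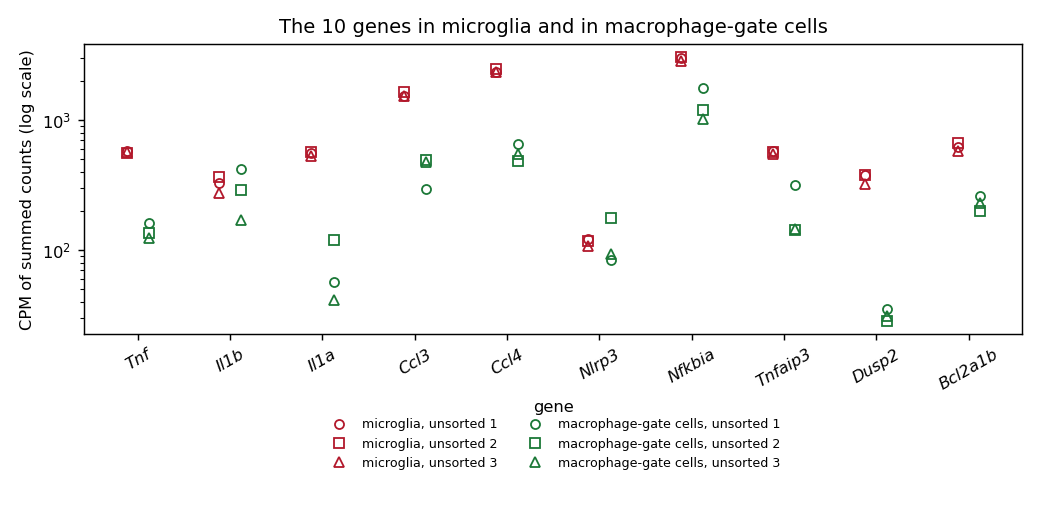
CPM of summed counts (y axis, log scale) of the 10 genes in microglia and in macrophage-gate cells, with a symbol for each unsorted library. Microglia lie above macrophages for 8 genes, while the symbols of Il1b (170 to 421 CPM in macrophages, 275 to 367 in microglia) and Nlrp3 overlap.

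Of 72 other pathway genes tested in this contrast, 10 rose in macrophages, 14 fell and 48 were not called. Fold changes here carry a scaling of -0.22. Among secreted ligands 6 rose (Il10, Ccl7, Cxcl1, Cxcl2, Ccl2 and Ccl12) and 4 fell (Il6, Csf1, Tgfb1 and Ccl9). Ccl12 lay near the fold limit, at 1.03, SE 0.17, and was higher in macrophages in only 2 libraries. The chemokine Ccl7 was at 249 ± 65.1 CPM against 1.51 ± 0.404 (log2 fold change 7.08, SE 0.36), and edgeR's adjusted p was 1.79e-37. Il10 was also called, with 25 UMIs in macrophages against 3 in microglia, a ratio of 229 with a counting interval of 70.0 to 1187, but 23 of the 25 came from library 1, and without library 1 or library 3 too few were left for the test. Il6 had 0 UMIs in macrophages and 156 in microglia, at least 1.89-fold lower with a floor of 3 counts over the group. The receptors Ccr1 (3.40, SE 0.54), Cd14 (1.23, SE 0.15) and Ly96 rose, and Il10ra was among those that fell. P2rx7, the ATP-gated channel upstream of NLRP3, rose by 2.08, SE 0.19, and Pycard, the inflammasome adaptor, had -1.52, SE 0.20.

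Feedback inhibitors fell for 3 of 15 genes and rose for none, with Socs3 at 55.8 ± 6.07 CPM against 420 ± 26.2 (-3.11, SE 0.22), Zc3h12a at -1.77 and Nfkbid at -1.14. Survival genes fell for 3 of 7, with Bcl2a1a at -3.21, Bcl2a1d at -1.49 and Mcl1 at -1.01. Among the NF-kB subunits 1 of 5, Nfkb1, fell (-1.07, SE 0.23), and none of 11 signalling genes was called. Beside these, 4 of 19 early response genes rose (Klf2, Klf4, Klf6 and Fosb) and 4 fell (Egr1, Egr2, Egr3 and Ier5), 6 of 9 interferon response genes rose, and 4 of 8 heat shock genes rose. Of 13 homeostatic microglial genes outside the gate, 8 fell and none rose. Without library 3 the number of pathway genes called was 15 instead of 24, and the calls of Nfkbid and Zc3h12a were among those lost. The call of Mcl1 was lost without library 1 or library 3, those of Nfkb1 and Bcl2a1d without library 2 or library 3, and that of Il6 when any library was left out.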

How the data were processed

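Single-cell 3′ RNA-seq libraries were analysed from 3 unsorted samples and 1 sorted sample. Per the labels and the methods, the authors aligned reads to mm10 with 5 viral barcodes added, and deposited filtered matrices of UMI counts made with Cell Ranger, together with metadata of excitatory neurons. The submitters' processing notes also name Seurat 3.1.4 and Scanpy. The deposited counts were used without the authors' normalisation, on all barcodes. Viral barcode features (0.0319% to 0.0384% of UMIs) were left out. All 31053 genes were read, and no column was unmatched (0).

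The members and gene lists were chosen with earlier results of these data known. Detection is 1 or more UMIs. CPM is from counts summed over cells. For co-detection and counts of members per cell, cells with fewer than 2000 UMIs were left out (919 to 1022 microglia kept per library) and the rest thinned to 2000 (seed 1), with 0.5 added to each cell of the odds ratio. No doublet caller was run. The other classes took 5 or more UMIs of their markers and at least 2 times those of any other class. Counts summed per library and class were tested with edgeR 4.0.16 (quasi-likelihood, TMM, library as a block, Benjamini-Hochberg adjustment over all genes tested) in R 4.3.3, and with DESeq2 1.42.0 as an alternative, after tests on simulated data. The 2 sides of a contrast come from the same library, hence the block. Of each pathway role, the 2 highest and the lowest log2 fold changes among genes called were named, and the 10 genes most like the members by the lowest difference in detection over the 3 libraries. Python 3.11.15, numpy 2.4.6, pandas 2.3.3, scipy 1.17.1 and matplotlib 3.10.9 were used. Alternatives were other gates, the study's cell filter (500 to 8000 genes, 1000 to 60000 UMIs, at most 20% mitochondrial UMIs), other scalings and filters, no block, and each library left out. Intervals are Wilson 95% and cover counting error only. The values of 1 receptor gene that the naming rule would have named are not reported here.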

Additional observations from a re-analysis of the deposited data

Results flagged for a closer look

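In the library sorted for EGFP, 58 of 2075 barcodes (2.80%) met the rule for microglia. No comparison of groups used these cells, and the sort was for EGFP of the retrograde virus. Their values of the 10 genes stand beside those of the unsorted libraries in the report, and the way in which these cells passed the sort was not tested.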

How the results depend on the processing

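No result changed direction under any alternative that was run. The median detected share of the 10 genes, 62.0% (SD 1.16 over libraries), was 58.1% with a gate of 3 UMIs, 65.9% with a gate of 10, 64.4% under the study's cell filter and 50.3% at 2000 UMIs per cell, and 61.4% to 62.6% with a library left out. The median log2 odds ratio of co-detection, 1.22, was 1.90 without thinning and 1.06 at 1000 UMIs per cell, and 1.12 to 1.22 with a library left out. No pair went below 0.56 under any alternative. The median share of the members' UMIs held by microglia, 93.0%, was 91.3% with a gate of 10, 81.0% with a neuronal limit of 0 UMIs, which takes fewer microglia, 94.0% under the study's cell filter and 91.2% without cells with macrophage markers, and 92.7% to 93.1% with a library left out. The number of pathway genes called between microglia and all other cells, 69, was 67 to 71 under every alternative, 70 with no replicate block among them. The number between macrophage-gate cells and microglia, 24, was 22 with no replicate block, 16 by DESeq2, and 15 to 23 with a library left out, lowest without library 3. Over all genes this contrast gave 1537 calls, against 947 by DESeq2 and 958 and 595 without library 2 and library 3. Among the named genes, 24 of 220 alternative values in this contrast lost the call (Il6, Nfkb1, Nfkbid, Zc3h12a, Mcl1 and Bcl2a1d), and 1 of 248 in the other (Il1r1). Mcl1 lay near the fold limit. The cause of these losses was not tested. The lists along the count of members were also computed without cells with 3 or more macrophage-marker UMIs, an alternative chosen after seeing the data. Depth limits the detected share of genes with 1 UMI per positive cell, such as Nlrp3, and 31 or 32 macrophage-gate cells per library limit the second contrast.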
